A study of Mus musculus with 24 samples.

Results

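The 37 mitochondrially encoded genes of the mouse were followed through 24 RNA-seq libraries of P815, a mastocytoma (mast cell tumour) line. Members were taken by name alone, as every gene whose symbol starts with mt-, and they are 37 of the 55385 genes in the deposited table. These 37 are also all the genes that the table places on the mitochondrial chromosome (MT): 13 encode proteins, 2 encode ribosomal RNAs (rRNAs) and 22 encode transfer RNAs (tRNAs). All 37 passed the filter on low values, which was at least 1 FPKM (fragments per kilobase of gene, scaled to the sequencing depth) in 3 or more of the 24 libraries, and entered the tests among 12183 genes.

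There were 8 groups of 3 libraries. P815 cells carried a negative control vector (NC) or a short hairpin RNA against mouse Esr1, the gene of estrogen receptor alpha (SH), and each of these was sequenced without and with β-estradiol (E2). Other P815 cells received an estrogen receptor inhibitor, ICI-182780 (ICI, fulvestrant) or tamoxifen (Tamo), again without and with E2. The treatments lasted 24 h in every group for which a time is given; none is given for NC and SH without E2. All groups share the cell line and a medium of RPMI-1640 with 10% fetal bovine serum. No dose is stated, and no vector is mentioned for the inhibitor groups, so in a comparison with NC the drug and the vector cannot be told apart. The 3 libraries of a group are not described as separate cultures, so p-values measure the spread among these libraries, which may be technical.

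Library totals ran from 42059008 to 68793278 estimated counts (median 54232989). Esr1 stayed below 1 FPKM and was not tested: it was at 0.342 ± 0.135 FPKM (SD, n = 3) in NC and 0.278 ± 0.0620 FPKM in SH, a difference smaller than the SD of NC. With E2 it was at 0.314 ± 0.0781 FPKM in NC (0.234 to 0.389) and 0.215 ± 0.0369 FPKM in SH (0.181 to 0.254), lower in SH by more than either SD, with overlapping ranges. Of 14 mast cell markers 9 exceeded 1 FPKM in every library, among them Kit, the stem cell factor receptor, at 98.3 to 175 FPKM. Fcer1a, the IgE-binding chain of the high-affinity receptor, was below 1 FPKM in all libraries. Of 13 markers of fibroblasts, epithelium, T cells, B cells and macrophages, 11 were below 1 FPKM in all libraries, and none had a count of 0 throughout.

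The mammalian mitochondrial genome is a small circle that is transcribed on both strands into long RNAs. Most tRNA genes lie between the rRNA and protein genes, and cutting at the tRNAs releases the individual RNAs. The proteins are subunits of respiratory complexes I (the mt-Nd genes), III (mt-Cytb) and IV (mt-Co1 to mt-Co3) and of the ATP synthase (mt-Atp6 and mt-Atp8), while nuclear genes supply the other subunits and the machinery of transcription. In the deposited annotation 28 members lie on the plus strand, transcribed from the heavy-strand promoter, and 9 on the minus strand, called light-strand genes here: mt-Nd6 and 8 tRNAs.

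A stretch of chromosome 1 copies part of this genome, and it affects how reads of at least 7 of the 13 protein genes can be assigned. The table lists 7 unprocessed pseudogenes on the minus strand of chromosome 1 between 24611535 and 24616197 (GRCm38), a span of 4663 bases. Their transcripts and those of the mt- genes were compared base by base in GENCODE release M21, which places all 44 models where the table does. Of these copies 5 were identical to the mitochondrial gene over every base they hold: Gm10222 (mt-Nd4l), Gm28661 (mt-Co2), Gm28437 (mt-Co3), Gm10925 (mt-Atp6) and Gm28439, which holds the first 876 of the 1378 bases of mt-Nd4. Gm28438 differed from mt-Nd3 at 1 of 345 bases (T3C). Gm29216 holds only bases 1054 to 1545 of mt-Co1, 31.8% of the gene, and differed at 6 of 492 bases, all within its first 13 (T1056A, C1057T, A1059G, A1060G, C1062A and A1066T). In these tokens the mitochondrial base comes first, and positions count from 1 at the 5′ end of the mt- gene. First-base positions of gene and copy sum to 24622578 in 5 pairs and 24622577 in 2, so order and spacing are nearly kept. mt-Atp8 and several tRNA genes lie between the copied genes but have no pseudogene of their own in this stretch. The last 43 bases of mt-Atp8 fall within Gm10925. Its other bases and these tRNA genes were not compared with chromosome 1. The first bases of 3 pairs show how little there is to separate them, with mismatches in capitals; the mt- genes are on the plus strand of MT and the copies on the minus strand of chromosome 1.
mt-Nd3, bases 1 to 32: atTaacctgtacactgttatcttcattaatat
Gm28438, bases 1 to 32: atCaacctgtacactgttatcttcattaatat
mt-Co1, bases 1054 to 1085: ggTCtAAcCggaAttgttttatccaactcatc
Gm29216, bases 1 to 32: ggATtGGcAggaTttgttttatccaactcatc
mt-Atp6, bases 1 to 60: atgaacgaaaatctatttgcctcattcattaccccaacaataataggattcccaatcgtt
Gm10925, bases 1 to 60: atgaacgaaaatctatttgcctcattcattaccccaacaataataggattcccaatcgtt

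Neighbouring members also share bases with each other. The end of mt-Atp8 and the start of mt-Atp6 overlap by 43 bases, shown in capitals below because a read there belongs to both genes; mt-Nd4l and mt-Nd4 overlap by 7 bases, mt-Atp6 and mt-Co3 by 1, and mt-Nd5 and mt-Nd6, which lie on opposite strands, by 14. Some tRNA genes also share bases with a neighbour: mt-Ti with mt-Nd1 and mt-Tq, mt-Tw with mt-Nd2, mt-Ts1 with mt-Co1, and mt-Tl2 with mt-Ts2. Whether the counting used strand is not stated, so reads of overlapping or antisense genes cannot be told apart.
mt-Atp8 end, bases 142 to 204: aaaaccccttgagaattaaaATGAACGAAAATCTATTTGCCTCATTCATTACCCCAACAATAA
mt-Atp6 start, bases 1 to 63: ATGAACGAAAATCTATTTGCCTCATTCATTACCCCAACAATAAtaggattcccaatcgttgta

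The tRNA members that carry the results below are the glutamate tRNA mt-Te and the proline tRNA mt-Tp on the light strand, and the leucine tRNA mt-Tl1 on the heavy strand. Their full genes are given 5′ to 3′ on their own strand.
mt-Te, MT:14071-14139: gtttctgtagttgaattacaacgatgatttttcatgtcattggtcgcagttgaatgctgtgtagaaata
mt-Tp, MT:15356-15422: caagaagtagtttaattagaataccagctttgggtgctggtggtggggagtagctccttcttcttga
mt-Tl1, MT:2676-2750: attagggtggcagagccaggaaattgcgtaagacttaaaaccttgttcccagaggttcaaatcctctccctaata

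Counts were divided between a mitochondrial gene and its copy almost evenly where the copy is full-length. Over the 24 libraries the median ratio of the gene's count to the copy's was 1.05 for mt-Nd3, 1.07 for mt-Nd4l, 1.08 for mt-Co2, 1.08 for mt-Co3 and 1.03 for mt-Atp6. For the 2 genes whose copy is partial it was higher, 2.71 for mt-Nd4 and 6.59 for mt-Co1. One library stood apart: Tamo replicate 1 had the highest ratio for all 7 pairs, from 1.95 (mt-Atp6) to 2.30 (mt-Co3) for the full-length copies, 3.78 for mt-Nd4 and 9.22 for mt-Co1. The next highest library lay between 1.38 and 1.61 for the full-length copies. The levels of these 7 members are therefore uncertain by up to the copy's count, and the sums of a gene and its copy are given beside them.

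**Figure D1:**
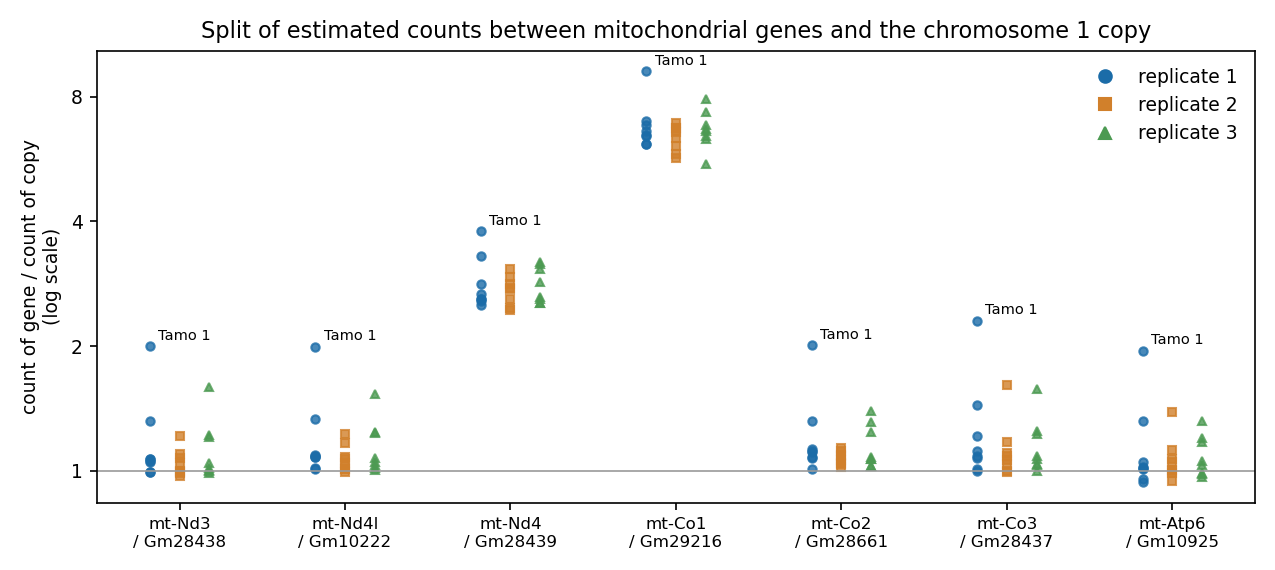
Ratio of the estimated count of each mitochondrial gene to that of its chromosome 1 copy (log scale), 1 point per library, 24 libraries per pair, by replicate number. Most libraries lie near 1 for the 5 genes with a full-length copy, and Tamo replicate 1 is the highest point of every pair.

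By level, mt-Co1, the catalytic subunit of complex IV, led the 15 rRNA and protein genes with 7724 ± 433 FPKM (mean and SD over 24 libraries) and was above the next gene in 24 of 24 libraries. Behind it came mt-Co2, the subunit that takes electrons from cytochrome c, at 5359 ± 576 FPKM, mt-Nd1 of complex I at 5330 ± 807 FPKM and mt-Atp6, the membrane channel subunit of the ATP synthase, at 5298 ± 625 FPKM. These 3 could not be ordered: mt-Co2 exceeded mt-Nd1 in 12 of 24 libraries, and mt-Nd1 exceeded mt-Atp6 in 12 of 24. mt-Cytb, the cytochrome b of complex III, followed at 4982 ± 417 FPKM, below mt-Atp6 in 16 of 24 libraries. Next were mt-Atp8 with 4543 ± 517 and mt-Co3, the third core subunit of complex IV, with 3788 ± 478 FPKM.

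The other complex I genes lay lower. mt-Nd2 stood at 3241 ± 228 FPKM, mt-Nd4 at 2468 ± 194 and mt-Nd4l at 1962 ± 219, each above the next in 24 of 24 libraries. mt-Nd6 of the light strand, at 1545 ± 137 FPKM, exceeded mt-Nd5, at 1448 ± 106, in 21 of 24 libraries, and mt-Nd3 was the lowest protein gene at 1059 ± 131 FPKM. Both rRNAs lay below every protein gene in these libraries: mt-Rnr2, the large-subunit rRNA, had 535 ± 137 FPKM and mt-Rnr1, the small-subunit rRNA, 404 ± 134. How far library preparation set the level of the rRNAs against the protein genes was not tested.

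Adding the copy's counts changed the order at the top. Per length of the mitochondrial gene, mt-Atp6 with its copy reached 10188 ± 1149 FPKM, mt-Co2 10083 ± 995, mt-Co1 8898 ± 502 and mt-Co3 7054 ± 694, all above mt-Nd1, which has no copy in this stretch. mt-Atp6 exceeded mt-Co2 in 15 of 24 libraries on this scale, and mt-Co2 exceeded mt-Co1 in 22. The same sum raised mt-Nd3 from 1059 to 2021 FPKM and mt-Nd4l from 1962 to 3703 FPKM, while mt-Nd4 rose to 3357 FPKM and could not be ordered against mt-Nd2 (12 of 24 libraries). No copy counts could be added to mt-Atp8, which lies within the copied stretch but has no pseudogene there. How many of the shared reads came from chromosome 1 was not tested.

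**Figure D2:**
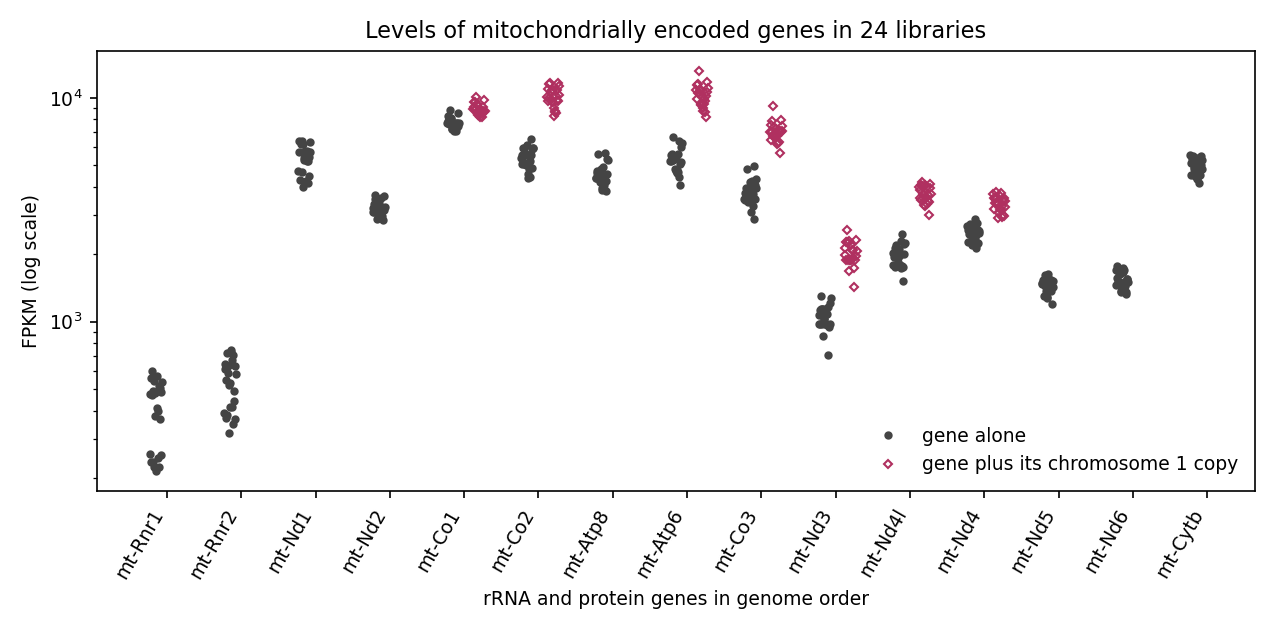
FPKM (log scale) of the 2 rRNA and 13 protein genes in genome order, 1 point per library, for the gene alone and, for the 7 genes with a chromosome 1 copy, for gene and copy together. mt-Co1 is highest alone, mt-Atp6 and mt-Co2 are highest with their copies, and mt-Rnr1 falls into a lower and an upper set of libraries.

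The tRNA genes took 0.0139% to 0.0245% of a library, and their counts were uneven. mt-Tl1 held 26.3% of all tRNA counts and mt-Te 25.2%, so that this pair held 51.5%; they are adjacent to mt-Rnr2 and mt-Nd1, and to mt-Nd6, respectively. The asparagine tRNA mt-Tn (9.54%) came next, followed by mt-Tp (9.37%) and the alanine tRNA mt-Ta (7.04%). The 8 highest tRNAs held 91.3%, and 6 of these 8 are light-strand genes. At the other end, 11 of 22 tRNAs had a median count below 100, and 8 of 22 fell below 12 counts in at least 1 library. The median ran from 11 counts for mt-Tr (arginine) to 2504 for mt-Te.

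Summed, the 37 genes took 4.76% to 5.95% of the estimated counts of a library (median 5.17%), and 12.8% to 15.8% of the summed FPKM. Protein genes made up 95.7% to 98.1% of the mitochondrial counts, rRNAs 1.59% to 3.81% and tRNAs 0.268% to 0.491%. The chromosome 1 copies took a further 1.01% to 1.80% of a library. Of the 20 genes with the highest FPKM in the whole table, 9 were mitochondrial and 4 were their chromosome 1 copies.

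Across groups the share was highest in ICI with E2, at 5.08%, 5.53% and 5.95%, and lowest in SH without E2, at 4.80%, 4.95% and 5.08%. NC had 5.18%, 5.40% and 5.42%, so every SH library lay below every NC library; the difference was -0.393 percentage points. With 3 libraries against 3 the exact two-sided permutation test cannot go below p = 0.1, which was the value here (0.33 after Benjamini-Hochberg adjustment over 15 comparisons). In RNA from whole cultures, fewer cells of a type and less RNA per cell cannot be told apart. With E2 the share in NC was 4.78%, 4.98% and 5.19%, a difference of -0.354 percentage points (exact p = 0.2). That test does not use the pairing by replicate number: the share was lower in 3 of 3 same-numbered pairs, for which an exact sign-flip test gave p = 0.25, the smallest that 3 pairs allow. In the other arms the E2 difference was 0.103 percentage points in SH (exact p = 0.6), 0.235 in ICI (exact p = 0.7) and 0.288 in Tamo (exact p = 0.4), and over the 4 arms the mean was 0.0679 (exact permutation p = 0.568). None of the 15 comparisons passed after adjustment (lowest adjusted p = 0.33).

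The E2 difference in the other arms was set against that in NC, with E2 labels permuted within both arms, so that the permutation assumes no E2 difference in either. It was larger than in NC by 0.458 percentage points in SH (exact p = 0.075), 0.589 in ICI (exact p = 0.11) and 0.643 in Tamo (exact p = 0.055), each with an adjusted p of 0.33. With the copies' counts included these became 0.673 (exact p = 0.045), 0.903 (exact p = 0.055) and 0.987 (exact p = 0.015), and the adjusted p was 0.206 for each. With the copies, E2 in NC gave -0.546 percentage points, SH against NC without E2 -0.605 and ICI against NC under E2 0.856. Each was at the smallest possible exact p of 0.1, without overlap of the groups, and had an adjusted p of 0.214.

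**Figure D3:**
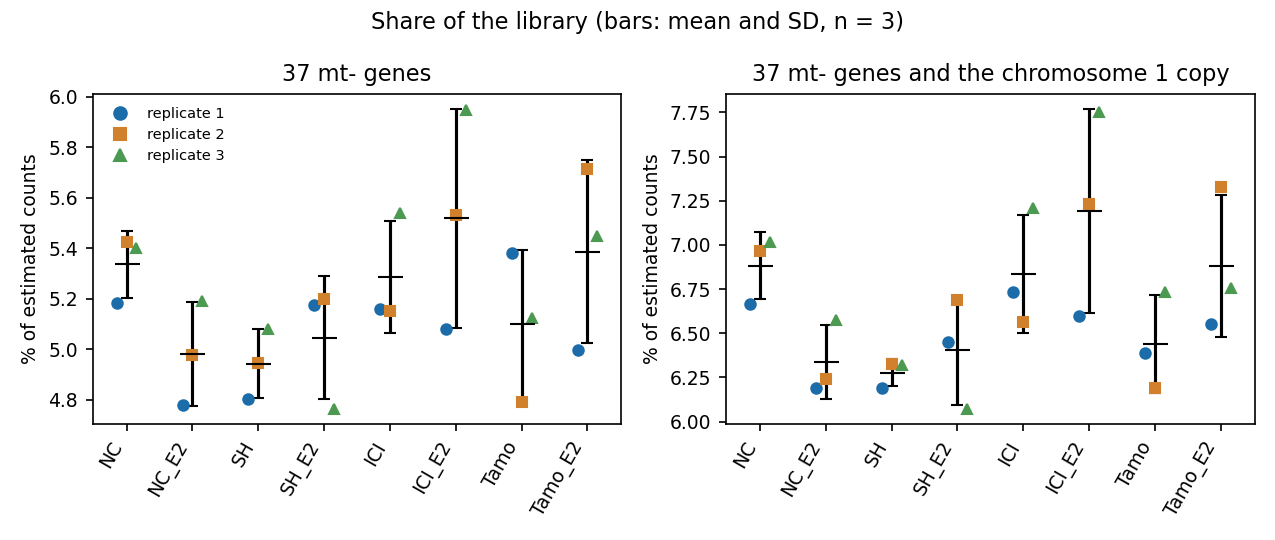
Percent of estimated counts per library in the 37 mitochondrial genes (left) and in these and the 7 chromosome 1 pseudogenes (right), by group; points are libraries marked by replicate number, and bars give mean and SD (n = 3). The vertical axes do not start at 0. SH without E2 lies below NC without overlap in both panels.

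Gene by gene, no member passed the test for E2 in any arm. By edgeR's quasi-likelihood test with Benjamini-Hochberg adjustment over 12183 genes, 0 of 37 were called in NC, SH, ICI and Tamo, against a background of 0% of all genes in each arm; DESeq2 and limma also called 0. At an unadjusted p under 0.05 there were 4 members in NC (of 244 genes of all tested), 0 in SH (of 163), 0 in ICI (of 224) and 1 in Tamo (of 434). In NC 30 of 37 members had a negative log2 fold change, with a median of -0.14, against a median of 0.00 over all genes tested. In Tamo 32 of 37 were positive with a median of 0.17, against -0.01 over all genes. Medians in SH and ICI were 0.06 and 0.07. Members are cut from shared long RNAs, so their signs, here and below, are not independent of each other. The averaged E2 difference over the 4 arms called 0 members by all 3 tools (0 at an unadjusted p under 0.05, of 295 genes), with 0.0575% of all genes called (0.0492% higher, 0.00821% lower); its smallest p values belonged to mt-Atp8 (0.12 ± 0.06, SE) and mt-Te (-0.11 ± 0.06).

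The precision behind these zeros differed by gene, and confidence intervals were computed for the rRNA and protein genes only. For these 15 genes in 4 arms, 56 of 60 95% confidence intervals of the E2 log2 fold change lay within a 2-fold change either way. They used the model's standard errors with 16 residual degrees of freedom. The widest belonged to mt-Rnr1, at -1.21 to 0.74 in NC. This model had no term for replicate number, and 94.8% of the variation of mt-Rnr1 in log2 CPM lay between replicate numbers (3.44% between groups). The members with the smallest p in NC were mt-Te (-0.45 ± 0.13, SE) and mt-Nd6 (-0.30 ± 0.09), both with an adjusted p of 0.9998. In Tamo they were mt-Te, here positive (0.35 ± 0.13), and mt-Tp (0.28 ± 0.14). In SH they were mt-Te (-0.17 ± 0.13) and the serine tRNA mt-Ts1 (-0.56 ± 0.44), and in ICI mt-Co3 (0.22 ± 0.15) and mt-Te (-0.18 ± 0.13).

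Esr1 short hairpin RNA without E2 went with lower values of all 13 protein genes, and no single one passed the test. Their median log2 fold change against NC was -0.17, with a range from -0.30 to -0.03, beside a median of 0.00 over all genes tested; the 22 tRNAs had a median of 0.14. edgeR called 0 of 37 members, DESeq2 and limma also called 0, and 2 members had an unadjusted p under 0.05. In the same comparison 9.07% of all genes were called (4.92% higher, 4.15% lower), so the members' count lies below the background. mt-Co2 had the smallest p: its FPKM was 4363, 4546 and 4796 in SH and 5053, 5553 and 5628 in NC, without overlap (log2 fold change -0.30 ± 0.11, SE; adjusted p = 0.104). mt-Co1 had 7140, 7307 and 7438 FPKM in SH and 7762, 8006 and 8150 in NC, also without overlap (-0.19 ± 0.07, adjusted p = 0.129).

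This count changed with 2 settings. Libraries with the same replicate number deviated together in this comparison, and with replicate number as a block 4 members passed: mt-Co1 (adjusted p = 0.0338), mt-Co2 (adjusted p = 0.0347) and mt-Nd1 lower and the tryptophan tRNA mt-Tw higher. The block also raised the genes called from 1105 to 2572 of 12183. With the chromosome 1 copies added to their genes, mt-Co2 (-0.33 ± 0.10, adjusted p = 0.0471) and mt-Atp6 (-0.31 ± 0.10, adjusted p = 0.0436) passed and mt-Co1 did not (-0.20 ± 0.07, adjusted p = 0.0921).

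With E2 present, SH against NC showed no common direction of the protein genes (7 of 13 positive, median 0.00), while 21 of 22 tRNAs were positive with a median of 0.43. Of these 22, 11 had a median count below 100, and their signs are not independent. edgeR called 0 members, with 9.59% of all genes called (5.3% higher, 4.28% lower) and 4 members, all tRNAs, at an unadjusted p under 0.05. mt-Te had the smallest p (0.37 ± 0.13, SE; adjusted p = 0.0721), and it was called by DESeq2 (adjusted p = 0.0311) and by limma (adjusted p = 0.0309). mt-Tw followed (0.57 ± 0.26, adjusted p = 0.195).

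With ICI-182780 and no E2 the members' median lay near that of NC. The median of the 37 was -0.01 and that of the 13 protein genes -0.03; edgeR, DESeq2 and limma called 0 members, 0 had an unadjusted p under 0.05, and 0.00821% of all genes were called. The threonine tRNA mt-Tt (-0.26 ± 0.21) and mt-Tr (0.43 ± 0.44) had the smallest p. With E2, 36 of 37 members were positive against NC with E2 (median 0.18, beside 0.00 over all genes), and again 0 were called by the 3 tools, 0% of all genes were called and 2 members had an unadjusted p under 0.05: mt-Nd6 (0.22 ± 0.09) and mt-Co1 (0.17 ± 0.07), both at an adjusted p of 1. The comparisons of E2 in NC and of SH, ICI and Tamo with NC under E2 all share the NC libraries with E2, so their values are not independent.

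Tamoxifen without E2 had a lower median of the members than NC (-0.08, 23 of 37 negative, beside 0.01 over all genes). edgeR called 0 members, 0.00821% of all genes were called, and 3 members had an unadjusted p under 0.05, all of them light-strand genes: mt-Te (-0.59 ± 0.13, SE; adjusted p = 0.448), mt-Nd6 (-0.28 ± 0.09) and mt-Tp (-0.40 ± 0.14). Of the chromosome 1 copies, all of heavy-strand genes, Gm28438 (-0.50), Gm28439 (-0.41), Gm10222 (-0.35) and Gm10925 (-0.35) also had an unadjusted p under 0.05. Gm29216, Gm28661 and Gm28437 did not, and none was called. With the copies' counts added to their genes, 4 members had an unadjusted p under 0.05 (median of the 37 -0.12). That number thus depends on how shared reads were divided. DESeq2 called 1 member, mt-Te (adjusted p = 0.0123), and limma 0. Without Tamo replicate 1 edgeR also called mt-Te (-0.76, adjusted p = 0.0328); over all settings its adjusted p ranged from 0.0123 to 1. With E2, Tamo against NC had 34 of 37 members positive (median 0.18), 0 called by any of the 3 tools, 0% of all genes called and 0 members at an unadjusted p under 0.05; mt-Nd5 (0.17 ± 0.08) and mt-Nd6 (0.18 ± 0.09) had the smallest p.

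The differences of the E2 response from that in NC had positive medians in all 3 arms: 0.16 in SH, 0.19 in ICI and 0.27 in Tamo, beside 0.00, 0.00 and -0.02 over all genes. edgeR called 0 members in each, with 0% of all genes called, and 0, 0 and 4 members at an unadjusted p under 0.05. In SH and ICI the smallest p belonged to mt-Nd6 (0.24 ± 0.13 and 0.26 ± 0.13), followed by mt-Te (0.28 ± 0.18) in SH and mt-Co1 (0.17 ± 0.10) in ICI. In Tamo they were mt-Te (0.80 ± 0.18, adjusted p = 0.566) and mt-Nd6 (0.46 ± 0.13, adjusted p = 0.881), then mt-Tp and mt-Nd5. The copies of heavy-strand genes Gm28438 (0.70), Gm28439 (0.64), Gm10925 (0.64) and Gm10222 (0.53) also had an unadjusted p under 0.05 there. Gm29216, Gm28661 and Gm28437 did not, and none was called. With the copies' counts added, 8 members had an unadjusted p under 0.05 in Tamo and 0 were called. DESeq2 called mt-Te in the Tamo comparison (adjusted p = 0.0218) and 0 in the others, and limma called 0 in all 3. All 3 share the NC libraries, so their values are not independent.

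Across all 8 groups at once, 1 of 37 members differed, mt-Te (edgeR quasi-likelihood, adjusted p = 0.00677); 11.3% of all genes were called in this test. Whether counts at this glutamate tRNA gene came from the mature tRNA or from longer RNAs was not tested. The gene was lowest in Tamo, at 28.6, 31.0 and 40.9 CPM (counts per 1000000 counts of the library), and in NC with E2, at 35.5, 37.7 and 38.0 CPM. NC without E2 had 47.9, 51.1 and 52.3 CPM, above both of these groups without overlap. The group with the highest mean was SH without E2, with 50.3, 56.2 and 61.3 CPM. ICI, with 44.0, 50.01 and 56.2 CPM, and SH with E2, with 46.5, 47.9 and 54.4 CPM, overlapped NC. ICI with E2 had 41.5, 43.3 and 46.3 CPM and Tamo with E2 39.3, 44.1 and 44.3 CPM, both below NC without overlap. The call was made with every single library left out in turn and under each other setting run. mt-Co2 (adjusted p = 0.0821), mt-Nd6 (adjusted p = 0.185) and mt-Tp (adjusted p = 0.201) were next. With replicate number as a block 10 members were called, mt-Te among them, and the genes called rose from 1374 to 3053.

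mt-Te, mt-Nd6 and mt-Tp all lie on the light strand, and mt-Te lies directly next to mt-Nd6 (MT:13552-14070); they were set side by side after their values had been seen. The other 6 light-strand genes, all tRNAs, did not all share their direction: for E2 in NC 3 of these 6 had a positive log2 fold change, mt-Ta (0.04), mt-Tn (0.06) and mt-Tc (0.01), and mt-Tq had the lowest value (-0.23). For Tamo against NC they ran from -0.28 for mt-Tn to 0.53 for mt-Ts1. Lower values were also seen off the light strand. Heavy-strand mt-Co1 had 12494 to 13267 CPM in NC with E2 and 12807 to 13303 in Tamo. Both lay below the 13395 to 14120 CPM of NC, without overlap. Heavy-strand mt-Nd5 lay below NC without overlap in NC with E2 but not in Tamo, and mt-Co2 overlapped NC in both. The share of all genes with such non-overlap was not counted. The 7 chromosome 1 copies, which are of heavy-strand genes, had lower values too. For E2 in NC all 7 copies were negative (median -0.24). For Tamo against NC the copies ran from -0.50 for Gm28438 to -0.03 for Gm29216. mt-Nd6 had 796 ± 6.65 CPM (SD, n = 3) in NC with E2 and 800.1 ± 35.9 in Tamo, against 975.2 ± 22.3 in NC, 942 ± 84.7 in SH and 954 ± 94.8 in ICI. Tamo with E2, at 892 ± 12.9 CPM, lay above both low groups without overlap. mt-Tp gave 14.4 ± 0.578 CPM in NC with E2 and 13.3 ± 3.01 in Tamo, against 17.7 ± 0.494 in NC. Its Tamo group was spread by replicate 2, at 9.86 CPM, while the other 2 libraries had 14.95 and 15.2. The sum of the 9 light-strand genes, mostly mt-Nd6, was 882 to 900.3 CPM in NC with E2 and 837 to 930 CPM in Tamo, below the 1061 to 1103 CPM of NC.

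**Figure D4:**
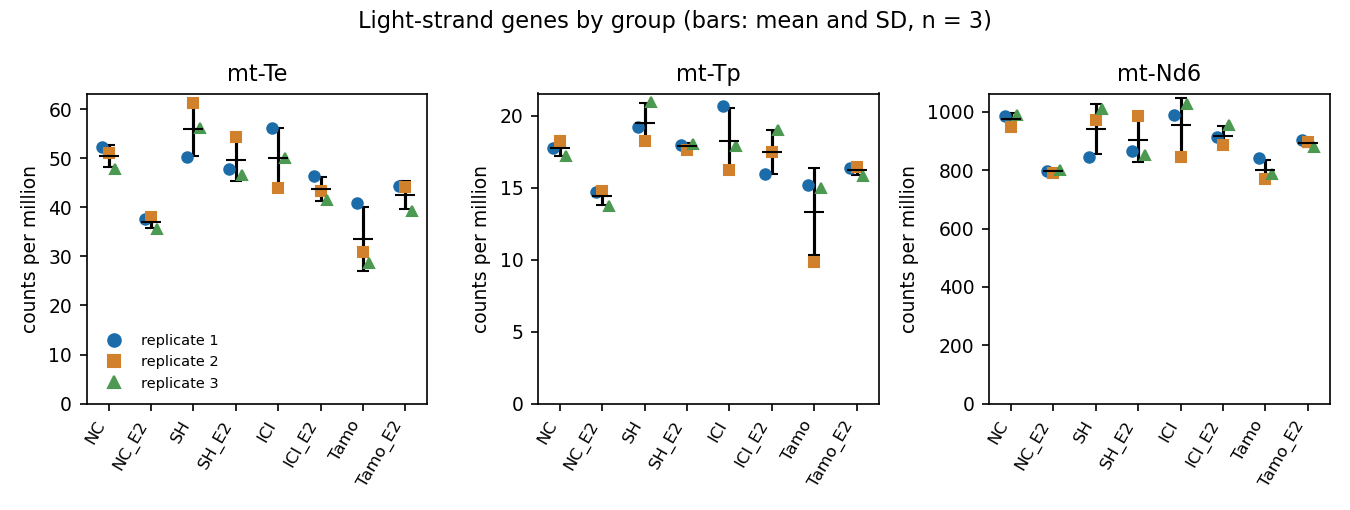
CPM of 3 light-strand genes, mt-Te, mt-Tp and mt-Nd6, by group; points are libraries marked by replicate number, bars are mean and SD (n = 3), and the axes start at 0. NC with E2 and Tamo lie below NC for all 3 genes, without overlap. The heavy-strand gene mt-Co1, which is not shown, did so too.

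Many members differed by replicate number. The split of replicate 1 from replicates 2 and 3 was already known from earlier results of these data. Its p-values, here and below, are therefore no independent test of that split. With a term for replicate 1 in the model, 16 of 37 members were called between replicate 1 and replicates 2 and 3 (3 higher, 13 lower). That is 43.2% of the members beside 39.7% of all genes (19.8% higher, 19.9% lower), so the share called is near the background. The size was not even along the genome. mt-Rnr1 was lower in replicate 1 by a log2 fold change of -1.06 ± 0.08 (SE, adjusted p = 2.1e-08), mt-Rnr2 by -0.72 ± 0.05 (adjusted p = 6.0e-09) and mt-Nd1, the first protein gene after them, by -0.45 ± 0.03 (adjusted p = 1.6e-08). mt-Nd2, the next protein gene, had -0.15 ± 0.04 (adjusted p = 0.00211).

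Of the protein genes after mt-Nd2, 8 were not called. Their log2 fold changes were -0.07 for mt-Co1, -0.11 for mt-Co2, 0.03 for mt-Atp8, -0.01 for mt-Atp6, 0.01 for mt-Co3, -0.12 for mt-Nd3, -0.02 for mt-Nd5 and -0.03 for mt-Nd6. With the copies' counts added, mt-Co1, mt-Co2 and mt-Nd3 were called as well, which gave 19 members. Higher in replicate 1 were mt-Nd4l (0.17 ± 0.06, adjusted p = 0.0275), mt-Nd4 (0.14 ± 0.04, adjusted p = 0.00946) and mt-Cytb (0.14 ± 0.04, adjusted p = 0.00564). Of the tRNAs 9 were called, all lower, and 7 of these are encoded before mt-Co1: mt-Tl1, mt-Ti (isoleucine), mt-Tq (glutamine), mt-Tm (methionine), mt-Tw, mt-Ta and mt-Tn. Among these, mt-Tq, mt-Ta and mt-Tn are light-strand genes. The tRNAs mt-Tf, mt-Tv, mt-Tc and mt-Ty are also encoded before mt-Co1 and were not called. The histidine tRNA mt-Th and the serine tRNA mt-Ts2 had adjusted p values of 0.0487 and 0.0384. They lost the call in 16 and 9 of the 24 fits that left out 1 library, and mt-Nd4l in 3 of 24.

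In CPM, 3 of 37 members had replicate 1 apart from all other libraries, all lower, where 5.41% of all genes did: mt-Rnr1, mt-Rnr2 and mt-Nd1. mt-Rnr1 ran from 230 to 274 CPM (median 252) in the 8 libraries of replicate 1, and from 392 to 645 CPM (median 519.7) in the other 16. Within those, replicate 3 exceeded replicate 2 in 8 of 8 groups for mt-Rnr1 and in 4 of 8 for mt-Rnr2. mt-Rnr2 ran from 564 to 738 CPM in replicate 1 and from 783 to 1323 in the others. mt-Nd1 ran from 4267 to 5034 CPM and from 5598 to 6850 CPM. Replicate 1 libraries were also smaller, with a mean total of 50035928 counts against 57490979, and the part of depth in these differences was not tested.

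**Figure D5:**
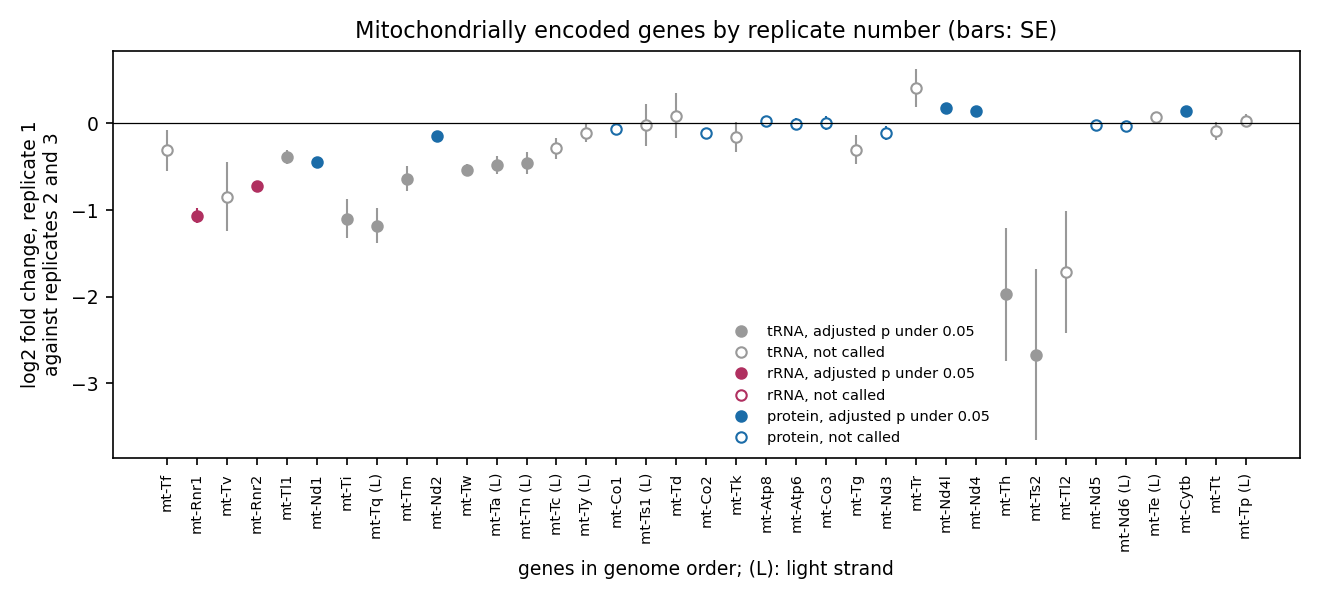
Log2 fold change of each of the 37 members in replicate 1 against replicates 2 and 3 (8 and 16 libraries), in genome order, with SE bars; filled points have an adjusted p under 0.05 and (L) marks light-strand genes. The rRNAs and mt-Nd1 at the start are lower, mt-Co1 to mt-Co3 and mt-Atp6 lie near 0, and mt-Nd4l, mt-Nd4 and mt-Cytb are slightly higher.

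As classes, the rRNA share of the library was 0.0919% ± 0.00620 (SD, n = 8) in replicate 1 and 0.161% ± 0.0199 (n = 16) in the others, with an exact permutation p of 0.000152 within groups, the smallest possible (adjusted p = 0.00229 over 15 comparisons). The tRNA share was 0.0159% ± 0.00156 against 0.0188% ± 0.00332 (exact p = 0.000457, adjusted p = 0.00686). Protein genes did not differ detectably, with 4.96% ± 0.203 against 5.08% ± 0.325 (exact p = 0.273). Since each group holds 1 library of replicate 1, these differences do not set the groups apart from each other.

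Nuclear genes of mitochondrial transcription, RNA processing, RNA modification and genome copying were taken as a list of 51, of which 50 are in the table and 49 were tested. None passed for E2 in any arm. For SH against NC without E2 1 of 49 passed: Twnk, the mitochondrial DNA helicase, with 11.7 ± 0.621 FPKM in SH and 15.5 ± 1.60 in NC (-0.46 ± 0.13, adjusted p = 0.0312). With E2 3 of 49 passed, Twnk (-0.49 ± 0.13), the tRNA methyltransferase Trmt61b (-0.75 ± 0.21) and Angel2 (0.36 ± 0.10). Both counts lie below the 9.07% and 9.59% of all genes called. Polrmt, the mitochondrial RNA polymerase, stood at 4.31 ± 0.371 FPKM in NC and 4.46 ± 0.810 in SH. Tfam, which packages the mitochondrial genome and is needed to start its transcription, had 19.9 ± 0.344 FPKM in NC and 19.3 ± 2.50 in SH. Lrpprc, which stabilises mitochondrial mRNAs, had 21.9 ± 1.16 and 22.6 ± 1.91 FPKM. In replicate 1 against the others 20 of 49 were called, 11 higher and 9 lower, close to the 39.7% of all genes.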

How the data were processed

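RNA from 24 libraries of the P815 line was sequenced. The submitters' processing notes name cutadapt, HISAT2 and the GRCm38 build, with no versions; no counting tool, annotation or strand setting is named there. Per the file headers, the authors deposited one table with estimated counts and FPKM for each gene and library. The estimated counts deposited are whole numbers, and 16.2% of the values from 1 to 40 equal 4; what 1 count stands for is not known.

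Members, gene lists and alternatives were chosen with earlier results of these data known. Genes with at least 1 FPKM in 3 or more of 24 libraries were kept (12183 of 28735 with a count), and the 8 groups were fitted together with edgeR 4.0.16 (TMM scaling, quasi-likelihood test, R 4.3.3). Benjamini-Hochberg adjustment covered the whole tested set, and a gene was called at an adjusted p under 0.05. The replicate 1 comparison had the 8 groups and a term for replicate 1 in the model, and its split was known from earlier results of these data. In each comparison the 2 members with the smallest p were named, beside those called; others were named for their level, role or position after their values were seen. Shares of a library were compared with exact two-sided permutation tests, enumerated in Python 3.11.15. SciPy 1.17.1 was used for the confidence intervals. DESeq2 1.42.0 and limma 3.58.1 (log2 of FPKM plus a pseudocount of 1 or 0.1) were alternatives, besides total count scaling, no filter, counts divided by 4, fits on only the libraries compared, a replicate block and each library left out. Adding the chromosome 1 copies and using replicates 2 and 3 only were chosen after seeing the data. The models were tested on simulated data. Sequences are from GENCODE M21 transcripts, read with Biopython 1.88.

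Whether equal replicate numbers pair the libraries was checked by correlating deviations from group means. Every same-numbered pair was over 0.1 in 12 of 14 comparisons; SH against NC with E2 (lowest 0.0967) and ICI against NC with E2 (lowest 0.0949) were the exceptions. Over 84 same-numbered pairs the median was 0.232, and over 168 others -0.141. The labels do not say what a number stands for.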

Additional observations from a re-analysis of the deposited data

How the results depend on the processing

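With a replicate block 4 members were called for SH against NC without E2, 6 with E2 (all higher: mt-Rnr2, mt-Ta, mt-Te, mt-Tl1, mt-Tt and mt-Tw) and 10 over the 8 groups, and the genes called rose from 1105 to 2572, from 1168 to 2667 and from 1374 to 3053; the block changed no other member count by over 1.5 times. In SH against NC with E2 the pairing fell short of the threshold, and 4 of 6 libraries matched their own number best. In that comparison total count scaling, DESeq2, limma with either pseudocount and replicates 2 and 3 only each called 1 member. DESeq2 called 1 for Tamo against NC without E2, 1 for the E2 difference of Tamo from NC and 3 over the 8 groups (2155 genes), limma called 2 over the 8 groups with either pseudocount, and adding the chromosome 1 copies called 2 for SH against NC without E2 and 2 over the 8 groups. Fits on only the libraries compared called 557 and 554 genes for SH against NC without and with E2, and replicates 2 and 3 only called 747 with E2 and 793 over the 8 groups; without NC_E2 replicate 3 the count with E2 was 778.

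Leaving out 1 library gave 1 to 2 members over the 8 groups (2 without Tamo replicate 2 or Tamo with E2 replicate 1), 0 to 1 for Tamo against NC without E2 (1 without Tamo replicate 1) and 13 to 19 for replicate 1. The E2 difference in share ranged from -0.458 to -0.252 percentage points in NC, 0.0268 to 0.244 in SH (lowest without SH with E2 replicate 2), 0.0202 to 0.455 in ICI (lowest without ICI with E2 replicate 3), 0.125 to 0.483 in Tamo (lowest without Tamo with E2 replicate 2) and 0.0143 to 0.123 for the mean. That of Tamo from NC ranged from -0.379 to -0.0835 without E2 (nearest 0 without Tamo replicate 2). The share difference of ICI from NC without E2 ranged from -0.179 to 0.0150 percentage points and turned positive without ICI replicate 1 (0.0104) or 2 (0.0150). That of SH from NC with E2 ranged from -0.0380 to 0.205 and turned negative without NC with E2 replicate 1 (-0.0380), SH with E2 replicate 1 (-0.000278) or SH with E2 replicate 2 (-0.0119). The E2 differences of the other arms from NC ranged from 0.355 to 0.598 (SH), from 0.375 to 0.810 (ICI) and from 0.479 to 0.838 (Tamo), with an exact p of 0.02 without SH with E2 replicate 3, 0.03 without ICI with E2 replicate 1, 0.045 without Tamo replicate 1 and 0.02 without Tamo with E2 replicate 1. With copies added, the SH difference was 0.673, the Tamo difference 0.987 and the replicate 1 difference -0.277 (exact p = 0.0476); as a share of summed FPKM the latter was -0.630 (exact p = 0.0480). The cause of these shifts was not tested. For single named genes 968 values kept their direction and side of the threshold, 13 newly passed, 33 no longer passed and 0 reversed.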

Other observations

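The 3 adjacent heavy-strand tRNA genes between mt-Nd4 and mt-Nd5, mt-Th (histidine), mt-Ts2 (serine) and mt-Tl2 (leucine), varied widely between libraries of the same group. Together they had 7 counts in ICI replicate 1 and 1240 in SH with E2 replicate 3, with a median of 81.5 over the 24 libraries. In CPM they ran from 0.152 to 18.03, and the next highest libraries were Tamo replicate 2 (11.6 CPM) and Tamo with E2 replicate 2 (11.9 CPM). High libraries thus belong to different groups and stand beside low libraries of the same group. The genes are shown because the 3 RNAs follow each other directly in the genome. By their coordinates mt-Ts2 and mt-Tl2 share base 11671.
mt-Th, MT:11546-11612: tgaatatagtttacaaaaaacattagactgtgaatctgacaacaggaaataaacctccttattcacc
mt-Ts2, MT:11613-11671: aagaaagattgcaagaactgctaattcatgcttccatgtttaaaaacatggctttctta
mt-Tl2, MT:11671-11741: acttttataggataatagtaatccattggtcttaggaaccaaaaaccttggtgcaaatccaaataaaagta

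Of the 7 chromosome 1 copies 2 were called over the 8 groups, Gm28439 (edgeR adjusted p = 0.0179) and Gm10925 (edgeR adjusted p = 0.0421), while their mitochondrial counterparts mt-Nd4 and mt-Atp6 were not. In replicate 1 against the others Gm28438 and Gm28661 were called lower, both at -0.22 on the log2 scale.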
